A study of Mus musculus with 32 samples.

Results

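Ribosomal protein pseudogenes were followed in RNA-seq libraries of the mouse embryonic brain. They were taken as the genes that GENCODE (release M21, GRCm38) types as processed pseudogenes and names as -ps copies of an Rps or Rpl gene, together with Rps3a3. This gave 277 members among 55536 annotated genes. Of these, 253 were listed among the 48576 gene identifiers of the expression tables and the other 24 were not analysed here. The choice used the symbol and the annotated type and no expression value. The annotation held 274 members with 1 exon and 3 with 2 exons, and 34 members lay on chromosome X.

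The libraries came from forebrain (Fb) and midbrain (Mb) tissue of B6C3F1 embryos dissected at E9.5. In each tissue there were 6 wild-type (WT) libraries, 4 of triple knockouts of the type II cadherins Cdh6, Cdh8 and Cdh11 with exencephaly (TKO_Ex), 3 of Cdh8 and Cdh11 double knockouts with exencephaly (DKO_Ex) and 3 of double knockouts with a cranial defect (DKO_CD). The labels name Cdh6 and Cdh8 for DKO_CD, whereas the methods of the study describe non-exencephalic Cdh8 and Cdh11 double knockouts with an elongated midbrain. The knockout alleles are small CRISPR/Cas9 deletions at the translation start, carried by every cell of the embryo. WT embryos came from WT matings and mutants from matings of triple heterozygotes, so that genotype and mating cannot be told apart. In the 12 DKO tables the column heading and the GEO record name opposite DKO groups. Groups here follow the heading, and the record grouping was run as an alternative. Nothing in the labels says whether libraries of a group came from separate litters, so p-values measure only the spread between these libraries.

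Ribosomal proteins are the protein subunits of the small (Rps) and large (Rpl) ribosomal subunit, and their genes are among the most highly transcribed in growing cells. A processed pseudogene arises when a spliced mRNA is copied back into DNA and inserted elsewhere in the genome, so that it lacks the introns and, as a rule, the promoter of its parent gene. A young copy is close to identical in sequence to its parent mRNA. A sequencing fragment from a stretch that the copy and the parent share cannot be assigned to one of them by its sequence alone, and how such fragments were divided is not given in the sources used here. A level listed for a pseudogene is therefore a share of the fragments that fit the copy, the parent and any other copy.

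The sequences of the members on which the results below turn show how far each can be told from its parent. They were read from the GENCODE M21 transcripts. In the lines that follow, capitals mark the bases at which member and parent differ, positions are counted from 1 at the first base of the member (or of the coding part of the parent), and substitutions are written with the base of the parent first.

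Rps3a3 is the copy of Rps3a1, which encodes a protein of the small subunit. It lies at chr13:108670603-108671397 (+) within Pde4d on the same strand. It is 795 bases long, as long as the coding part of Rps3a1, and holds no premature stop. It differs from Rps3a1 at 9 positions (98.87% identity), and 17.8% of its 101-base windows, the length of a read, occur in Rps3a1. Of the windows, 31.1% occur in any other annotated gene, the parent included. The stretch chr13:108671098-108671397 holds 5 of the differences (T534C, G582T, A660G, C762T and G792A).
Rps3a3, positions 496 to 795: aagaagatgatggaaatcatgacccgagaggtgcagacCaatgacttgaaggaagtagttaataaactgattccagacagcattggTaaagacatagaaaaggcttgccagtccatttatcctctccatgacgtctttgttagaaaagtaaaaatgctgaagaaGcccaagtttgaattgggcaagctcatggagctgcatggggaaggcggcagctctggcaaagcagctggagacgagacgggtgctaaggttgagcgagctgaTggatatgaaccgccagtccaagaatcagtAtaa
Rps3a1, coding positions 496 to 795: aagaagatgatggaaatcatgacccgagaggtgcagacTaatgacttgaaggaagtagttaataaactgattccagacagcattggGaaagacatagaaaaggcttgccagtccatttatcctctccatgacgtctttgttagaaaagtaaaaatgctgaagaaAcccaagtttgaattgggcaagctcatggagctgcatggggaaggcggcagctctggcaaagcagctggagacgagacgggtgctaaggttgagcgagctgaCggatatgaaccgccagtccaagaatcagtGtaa

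Rps25-ps1 is the copy of Rps25, another protein of the small subunit. It lies at chr6:145266400-145266777 (+), where no other gene is annotated. It is 378 bases long, holds no premature stop and differs from Rps25 at 4 positions (98.94% identity), all of them in the stretch chr6:145266400-145266599 (T6G, G55A, G159A and C188T). Of its 101-base windows, 33.5% occur in Rps25 and 43.9% in any other annotated gene, the parent included.
Rps25-ps1, positions 1 to 200: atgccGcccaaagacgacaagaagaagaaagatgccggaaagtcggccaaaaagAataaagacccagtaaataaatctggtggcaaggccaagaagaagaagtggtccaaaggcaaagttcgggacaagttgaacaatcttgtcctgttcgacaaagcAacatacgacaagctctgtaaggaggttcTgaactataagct
Rps25, coding positions 1 to 200: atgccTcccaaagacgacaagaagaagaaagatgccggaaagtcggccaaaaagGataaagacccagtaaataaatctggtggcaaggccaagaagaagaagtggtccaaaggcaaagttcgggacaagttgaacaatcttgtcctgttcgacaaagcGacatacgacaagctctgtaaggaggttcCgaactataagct

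Rpl3-ps1 is the copy of Rpl3, a protein of the large subunit. It lies at chrX:13202571-13203780 (+) and is 1210 bases long. It differs from Rpl3 at 2 positions (C58A and T787C), and 85.7% of its windows occur in the parent, so that few reads can separate them. Of its windows, 94.8% occur in any other annotated gene, the parent included. The stretches chrX:13202618-13202717 and chrX:13203347-13203446 hold 1 difference each.
Rpl3-ps1, positions 48 to 147: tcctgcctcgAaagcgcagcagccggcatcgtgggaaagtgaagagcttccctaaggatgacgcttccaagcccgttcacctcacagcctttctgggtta
Rpl3, coding positions 47 to 146: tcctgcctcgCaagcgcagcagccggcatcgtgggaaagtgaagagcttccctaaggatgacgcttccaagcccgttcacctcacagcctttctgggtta
Rpl3-ps1, positions 777 to 876: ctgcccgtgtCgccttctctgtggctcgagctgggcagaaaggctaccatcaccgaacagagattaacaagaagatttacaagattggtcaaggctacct
Rpl3, coding positions 776 to 875: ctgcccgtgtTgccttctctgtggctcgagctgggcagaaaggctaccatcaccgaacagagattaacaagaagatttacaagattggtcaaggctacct

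Rpl26-ps2 is an older copy, of the large-subunit gene Rpl26. It lies at chr12:57632581-57633015 (-) on the strand opposite to Ttc6, is 435 bases long and differs from Rpl26 at 30 positions (93.1% identity), of which 21 are in chr12:57632698-57632897. None of its windows occurs in the parent.
Rpl26-ps2, positions 119 to 318: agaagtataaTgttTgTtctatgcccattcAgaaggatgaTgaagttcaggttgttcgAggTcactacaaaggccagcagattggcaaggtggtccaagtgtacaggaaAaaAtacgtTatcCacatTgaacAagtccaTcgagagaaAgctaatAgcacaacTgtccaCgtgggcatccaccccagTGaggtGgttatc
Rpl26, coding positions 119 to 318: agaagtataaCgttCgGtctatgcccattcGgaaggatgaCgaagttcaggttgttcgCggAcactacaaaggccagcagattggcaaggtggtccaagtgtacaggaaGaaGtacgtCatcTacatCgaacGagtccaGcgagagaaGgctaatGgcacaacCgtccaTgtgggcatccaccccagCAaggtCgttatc

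Rpl28-ps1 is the member with the highest listed level, and it cannot be told from the coding part of Rpl28 at any of its 414 bases. It lies at chr1:128038569-128038982 (+) on the strand opposite to Zranb3, and its first 100 bases (chr1:128038569-128038668) are those of the parent.
Rpl28-ps1, positions 1 to 100: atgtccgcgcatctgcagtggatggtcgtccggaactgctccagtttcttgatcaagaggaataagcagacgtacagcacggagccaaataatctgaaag
Rpl28, coding positions 1 to 100: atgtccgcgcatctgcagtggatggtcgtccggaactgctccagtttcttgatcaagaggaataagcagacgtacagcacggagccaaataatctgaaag

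Most members were listed at 0. Expression was deposited as FPKM, the fragments on a gene scaled by its length and by the fragments mapped in the library. The steps of low values fitted a length shortened by what a fragment takes up, so that the FPKM of a short gene is raised beside that of a long one. Of the 253 members, 132 (52.2%) were at 0 in all 32 libraries, 18 were above 0 in 1 library, 49 in more than 1 but not all, and 54 (21.3%) in every library. Among the 6762 other processed pseudogenes listed, 68.4% were at 0 in all libraries and 5.97% were above 0 in every library. Of 87 listed ribosomal protein genes, 83 were above 0 in every library. The number of members above 0 was between 69 and 82 in each library, and the groups overlapped, with 70 to 74 in WT Mb, 70 to 82 in TKO_Ex Mb, 69 to 81 in DKO_Ex Mb, 69 to 73 in DKO_CD Mb, 72 to 76 in WT Fb, 74 to 82 in TKO_Ex Fb, 72 to 76 in DKO_Ex Fb and 69 to 75 in DKO_CD Fb.

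The depth set how low a level could be seen. Values at the low end came in steps, and the step of long genes put the libraries at 2.07 to 3.44 M fragments (M, mega; median 2.775 M), estimated from the FPKM values since no counts were used. At this depth 1 fragment on a member was worth 0.712 FPKM for Rps3a3 and 2.451 FPKM for Rpl26-ps2. Of the 526 member values of up to 2.5 fragments, 86.5% were within 0.2 of a whole fragment, where evenly spread values would give 40%. A member at 0 was given no fragment at this depth, which does not show that it was silent. Where its sequence is shared with the parent or another copy, a 0 also depends on how shared fragments were divided.

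**Figure D1:**
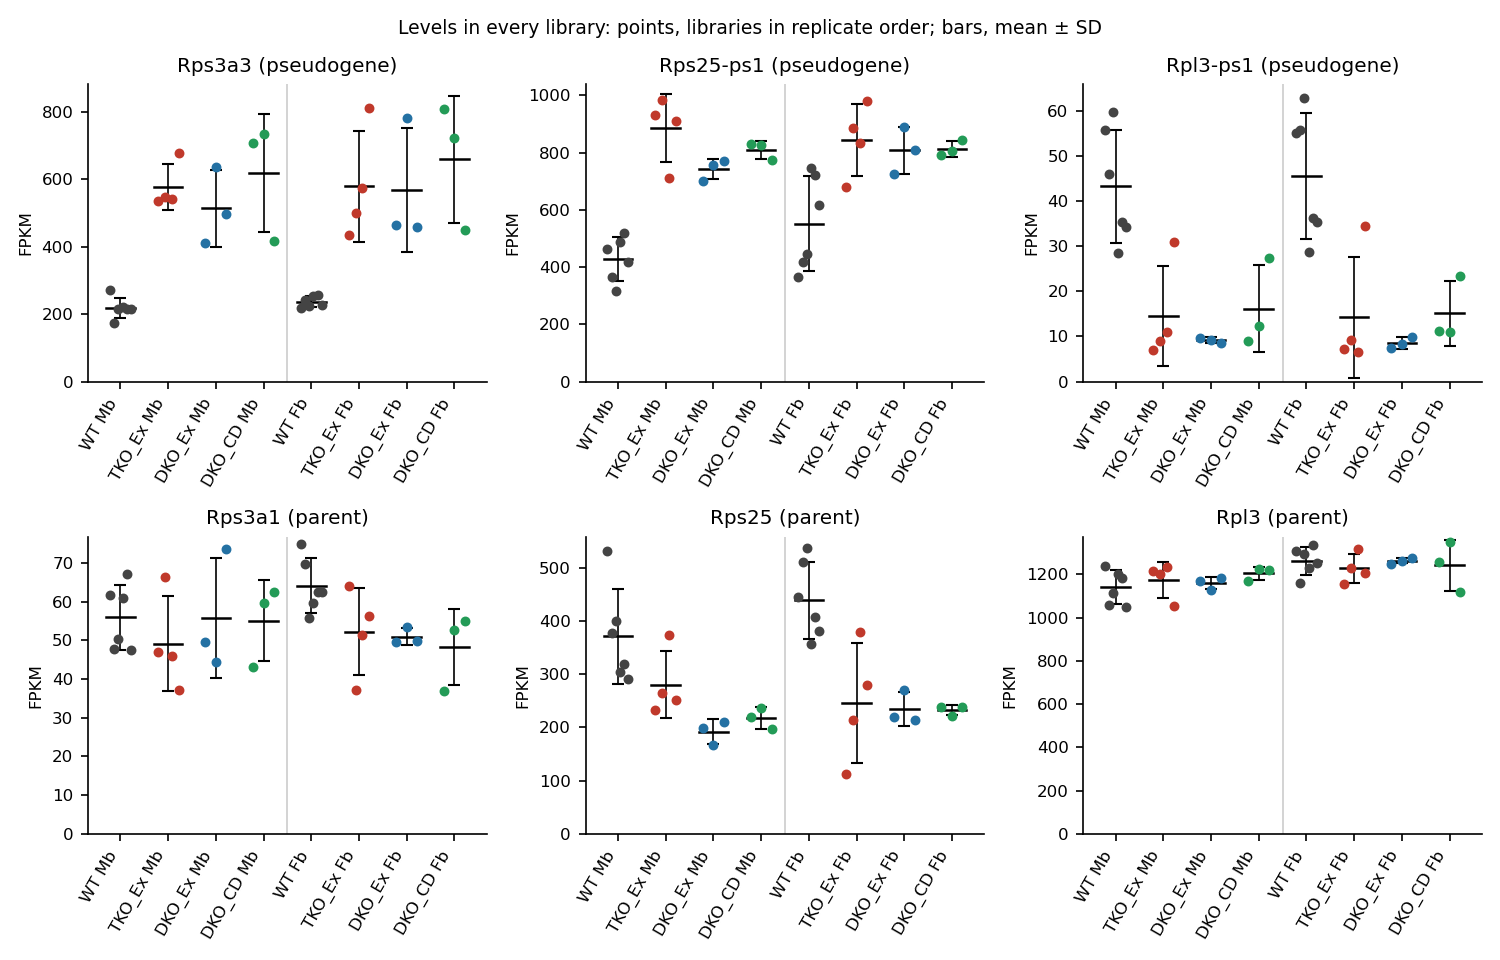
Levels of Rps3a3, Rps25-ps1 and Rpl3-ps1 (top) and of their parents Rps3a1, Rps25 and Rpl3 (bottom) in FPKM on linear axes that start at 0, by group. Each point is 1 library, in replicate order, with the mean and SD of its group in black. In Mb the WT libraries span 174 to 270 FPKM for Rps3a3 and those of the mutants 410 to 733 FPKM, with no overlap.

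Among members that were detected, levels ran over more than 3 orders of magnitude. The mean over the 12 WT libraries was at least 1 FPKM for 72 members, at least 10 for 50, at least 100 for 25 and at least 500 for 9, and lay between 0 and 1 for 33. The WT means of all members summed to 14077 FPKM, beside 139561.3 FPKM for the ribosomal protein genes and 42571.1 FPKM for the other processed pseudogenes. The 8 highest members held 58.1% of the members' sum. They included Rpl28-ps1 at 1522.5 ± 177 FPKM (SD, n = 12), Rpl35a-ps2 at 1327.7, Rps6-ps4 at 1078.3, Rpl36a-ps2 at 971, Rps19-ps6 at 963, Rpl9-ps4 at 751 and Rps15a-ps6 at 742 FPKM.

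Several members were listed above their parent. FPKM is per length, but a member is mostly shorter than its parent, and the shortened length raises it (94.6 of 378 bases for Rps25-ps1). Ratios are therefore also given per whole transcript length, with the longest coding transcript of the parent. The parent was listed for 117 of the members above 0, and in 12 of these the WT mean of the member exceeded that of the parent, in 9 by at least 2 times and in 2 by more than 10 times. Per whole length 9 of the 12 exceeded the parent, 6 of them by at least 2 times. Rpl28-ps1 was at 25.1 times the 60.7 FPKM of Rpl28, and at 10.4 times per whole length. Rpl10-ps6 (403 FPKM) was at 6.88 times its parent by FPKM and 5.71 times per whole length, Rpl9-ps4 at 5.88 and 3.3 times, Rps15a-ps6 at 4.15 and 1.21 times, Rps6-ps4 at 3.93 and 3.6 times and Rps3a3 (228 FPKM) at 3.79 and 3.43 times. Rps25-ps1 (491 FPKM) was at 1.21 times Rps25 (405 FPKM) by FPKM but at 0.392 times per whole length, so that the order of this pair depended on the length used. At the other end Rpl3-ps1 (44.5 FPKM) stood beside 1202.2 FPKM of Rpl3, Rpl31-ps9 (161 FPKM) beside 2110.9 FPKM of Rpl31, and Rpl19-ps1 (44.0 FPKM) beside 1717.5 FPKM of Rpl19. The share of the member in the summed FPKM of the pair was steady for the highest pairs, at 94.3 to 97.4% for Rpl28-ps1 and 75.9 to 86.3% for Rps6-ps4 over all 32 libraries.

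**Figure D2:**
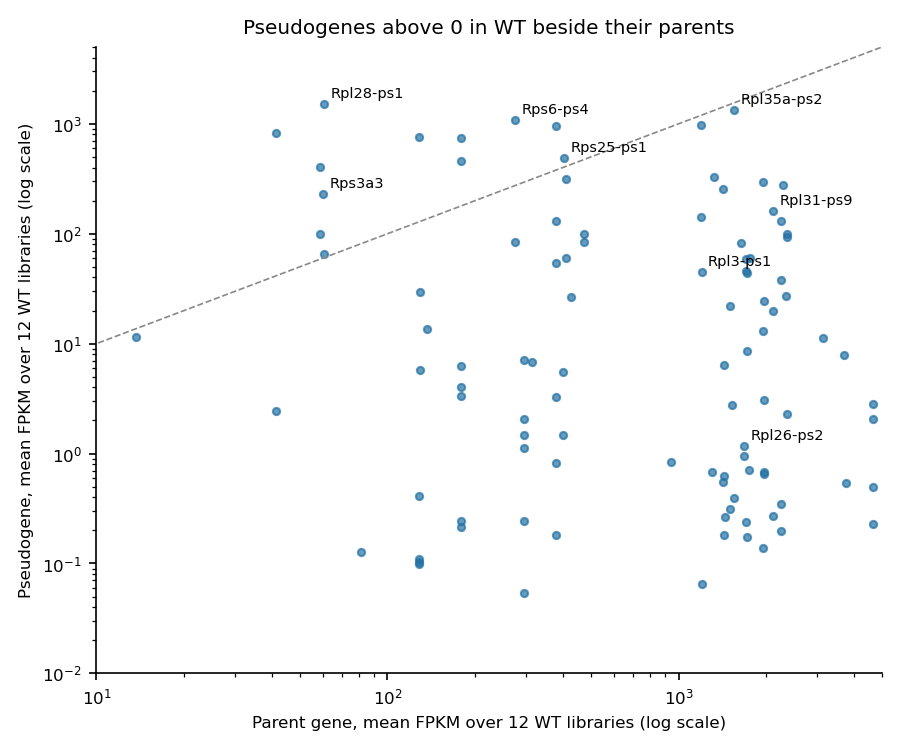
WT mean level of each member against that of its parent, both in FPKM on log axes, with the line of equality. Each point is 1 member with a listed parent and a WT mean above 0. Rpl28-ps1 stands more than 10 times above the line, and most members lie below it.

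The members above 0 in every library were mostly those closest to the parent in sequence. Of the members aligned over at least 50% of their length (248), 11 were identical to the parent, and 8 of these were above 0 in every library. Of 39 members with 99 to under 100% identity, 13 were above 0 in every library, as were 19 of 37 with 98 to 99%, 10 of 59 with 95 to 98%, 1 of 53 with 90 to 95% and 1 of 49 with under 90%. Of the 25 members with a WT mean of at least 100 FPKM, 23 had an identity of at least 98%, and the lowest was 87.5% (Rpl36a-ps3, 143 FPKM). In 1 of the 25, the 151-base Rpl39-ps at 331 FPKM, the estimated mean was 1.39 fragments, at 240.555 FPKM for 1 fragment. The estimate left only 1.5 of its bases open to a fragment, so that the number of fragments is uncertain there. Rpl39-ps was above 0 in all 32 libraries, with an SD of 98.2 FPKM over the WT libraries. Identity did not fix the level. Rpl38-ps2 and Rpl15-ps3 were identical to their parents over their whole length and were at 0 in all libraries, with Rpl38 at 4667.3 FPKM. Members shared one sequence in 4 sets, and 2 of these sets had a member above 0 in any library. In the Rpl35a set the level sat almost wholly on 1 member. Rpl35a-ps2 was above 0 in all 32 libraries, whereas Rpl35a-ps3, the same 333 bases, was above 0 in 1 library at 4.77 FPKM, and Rpl35a-ps4 and Rpl35a-ps6, again the same bases, were at 0 in every library. Rps19-ps2 and Rps19-ps1 share a sequence too, but both were above 0 in all 32 libraries, at 130 and 54.5 FPKM in WT. Premature stops were looked for only in members aligned without gaps. Of these, 40 of 122 with no premature stop (32.8%) and 4 of 12 with one (33.3%) were above 0 in every library. With only 12 members holding a stop and no test, this does not show that stops and detection are unrelated.

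**Figure D3:**
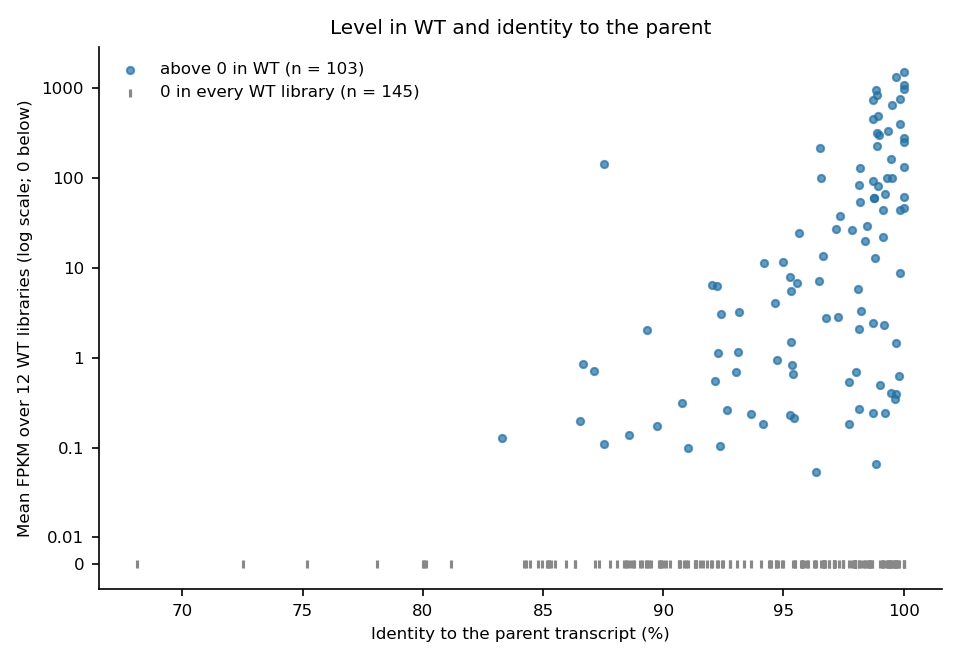
WT mean level of each aligned member (FPKM, log axis, with members at 0 drawn as ticks below it) against its percent identity to the parent. Of the 248 members, 103 were above 0 in WT and 145 at 0, and 23 of the 25 members at 100 FPKM or more lie at 98% identity or above.

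Members varied more between libraries of a group than their parents did. Over the 70 members with a mean of at least 1 FPKM in WT Mb, the median SD of log2(FPKM + 1) was 0.37, beside 0.22 for the parents, 0.52 for other processed pseudogenes and 0.27 for all genes. In WT Fb it was 0.34 over 74 members and 0.15 for the parents. The median SD of the members was largest in TKO_Ex Fb, at 0.60 beside 0.32 for the parents. The spread went with coverage. In WT Mb the median coefficient of variation of the 33 members under 3 fragments was 155%, where counting alone gives 172%, and that of the 20 members with 100 or more fragments was 15.3%, where counting gives 6.79%. In WT Fb the members with 100 or more fragments varied by 10.1%, where counting gives 6.28%.

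The 5 members with the largest spread in WT Mb were Rps15a-ps8, Rps15a-ps3, Rps15a-ps1, Rps19-ps10 and Rps12-ps19, whose values ran from 0 to 18.3 FPKM over all libraries. In WT Mb, Rps15a-ps8 was at 0, 13.7, 0, 11.8, 3.09 and 9.46 FPKM. Each of the 5 was at 0 in at least 1 WT library of each tissue.

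Whole libraries also differed. Over the 43 members with a mean of at least 10 fragments, the median deviation of a library from the WT mean of its tissue (log2) ran from -0.40 in TKO_Ex Fb replicate 1, where the ribosomal protein genes were at -0.61, to 0.39 in TKO_Ex Mb replicate 3. The 4 TKO_Ex Mb libraries were at 0.23 to 0.39, and their ribosomal protein genes at -0.02 to 0.19. WT Mb libraries were at -0.19 to 0.32, with replicate 1 the highest (ribosomal protein genes 0.33). TKO_Ex Mb libraries were also the shallowest of the Mb libraries, at 2.07 to 2.475 M fragments against 2.53 to 3.11 M in WT Mb. WT Mb replicate 1 (2.53 M) and WT Fb replicate 5 (2.37 M, deviation 0.16) were the shallowest and highest of their groups. TKO_Ex Fb replicate 1 was the deepest Fb library (3.44 M). Against this order, WT Mb replicate 6 (2.66 M) was at -0.19, and DKO_Ex Mb replicate 3 (3.44 M) was the highest of its group at -0.02. The part of depth in these deviations was not tested. With this deviation taken from each library, as a description with no test, the TKO_Ex Mb differences given below came to 1.12 for Rps3a3, 0.78 for Rps25-ps1, 0.62 for Rpl19-ps1 and 0.56 for Rpl31-ps9, and the groups of these members still did not overlap. Those of Rps3a3 in the other 5 comparisons came to 1.3 to 1.64.

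**Figure D4:**
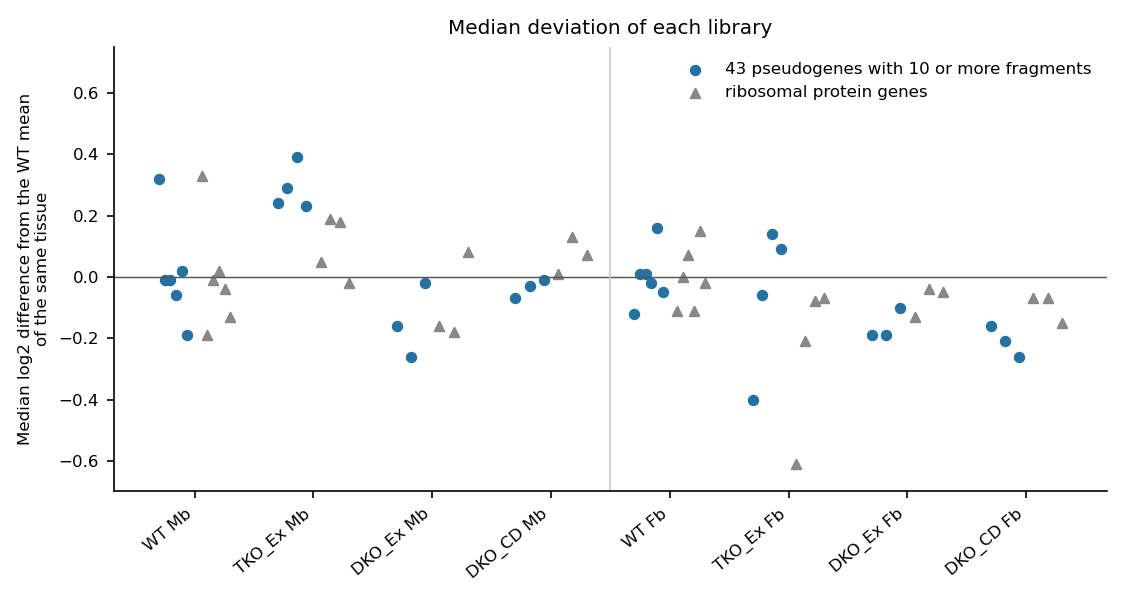
Median deviation (log2) of the well covered members and of the ribosomal protein genes in each library from the WT mean of the same tissue, by group, with circles for the members and triangles for the ribosomal protein genes. The 4 TKO_Ex Mb libraries lie at 0.23 to 0.39 for the members, and TKO_Ex Fb replicate 1 is lowest at -0.40.

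The defining markers of each tissue were present under its label. Summed FPKM of 5 forebrain genes was 94.4 to 230 in the Fb libraries and 0.367 to 10.4 in the Mb libraries, and that of 4 midbrain genes was 16.1 to 175 in the Mb libraries (lowest in WT Mb replicate 5) and 0.174 to 8.96 in the Fb libraries. Embryonic globins of primitive red cells summed to between 2391.1 and 21454.7 FPKM, and neural crest markers to at most 6.5 FPKM. Marker sums of other tissues moved with some groups. Surface ectoderm genes summed to 81.1 to 208 FPKM in TKO_Ex Fb against 51.3 to 83.5 in WT Fb. Mesenchyme genes summed to 70.3 to 120 FPKM in DKO_CD Mb against 42.6 to 79.7 in WT Mb, and to 71.0 to 110 in TKO_Ex Fb against 98.2 to 138 in WT Fb. In TKO_Ex Mb both overlapped WT Mb, at 20.9 to 31.1 FPKM against 21.2 to 34.0 for surface ectoderm and 51.0 to 69.0 against 42.6 to 79.7 for mesenchyme. Their part in the differences below was not tested. The deletions need not remove the mRNA. Cdh6 was at 0.345 to 0.388 FPKM in 3 TKO_Ex Mb libraries but at 3.1 FPKM in replicate 3, within the WT Mb range of 1.04 to 3.55 FPKM. It was at 1.29 to 2.11 FPKM in DKO_CD Mb and 1.86 to 3.12 in DKO_Ex Mb. In Fb, Cdh6 was at 2.04 to 4.0 FPKM in WT, 0.572 to 3.74 in TKO_Ex, 1.72 to 3.43 in DKO_CD and 3.62 to 4.34 in DKO_Ex. Which genes are deleted in DKO_CD was not tested.

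Xist, the RNA that coats the inactive X chromosome, divided the libraries into 18 with 69.8 to 121 FPKM and 14 with 0.0218 to 1.04 FPKM. In WT, replicates 1 to 3 of both tissues were low and replicates 4 to 6 high, so that any other difference between these WT libraries cannot be told apart from it. TKO_Ex 4, DKO_Ex 1, DKO_CD 1 and DKO_CD 2 were low and the other mutants high, and all 16 same-numbered Mb and Fb libraries fell in one class. Values by this class are given where they bear on a member.

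The 3 mutant groups of a tissue were each set against its WT libraries, which these comparisons therefore share. Comparisons in Mb and in Fb are not taken as independent of each other either. Each of the 16 same-numbered Mb and Fb pairs shared its class by Xist, and 13 of 16 Mb libraries correlated best with the Fb library of their own number. The test was limma on log2(FPKM + 1) for genes averaging 1 FPKM or more, and a gene was called at a Benjamini-Hochberg adjusted p under 0.05. Fold changes are on this scale, on which the changes of low genes come out too small.

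TKO_Ex Mb held the most calls. Of 75 members tested, 5 were called higher and 0 lower, where 0.0898% of the 13361 genes tested were called. At an unadjusted p under 0.05, 30 members (40%) were higher and 3 lower, against 5.18% and 3.2% of all genes. The median log2 fold change was 0.39 over the members, 0.09 over the 55 parents and 0.02 over all genes. By limma none of the parents or of the 84 ribosomal protein genes tested was called, with 9 of the ribosomal protein genes higher and 1 lower at an unadjusted p under 0.05. In tissue samples such as these, fewer cells that express a gene and less of its RNA per cell cannot be told apart. The 5 members were Rps3a3, Rps25-ps1, Rpl31-ps9, Rpl19-ps1 and Rpl26-ps2. The last passed the filter only through the TKO_Ex libraries, where it had to be higher, so that its call is no support. Among the 68 members at 1 FPKM or more in both groups, 4 were called higher, and 26 were higher and 3 lower at an unadjusted p under 0.05. Without WT Mb replicate 1 the count of member calls was 8, and without TKO_Ex replicate 1 or 2 or WT replicate 2 or 6 it was 2 (Rps3a3 and Rpl26-ps2). Each of these counts includes Rpl26-ps2, whose call is no support. The share of all genes called in those fits is not given.

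In DKO_Ex Mb 1 of 72 members rose and 1 fell, where 0.0903% of all genes were called. At an unadjusted p under 0.05, 3 members were higher and 7 lower there, against 3.53% and 1.93% of all genes. In DKO_CD Mb 1 of 72 rose and 0 fell, where 0.0375% of all genes were called. At an unadjusted p under 0.05, 4 members were higher and 4 lower there, against 4.32% and 2.38% of all genes. The medians were -0.16 and -0.09 over the members and -0.06 and 0.09 over the parents. In TKO_Ex Fb 1 of 77 members rose and 0 fell, where 0.0603% of all genes were called. At an unadjusted p under 0.05, 6 were higher and 10 lower, against 5.07% and 3.59% of all genes, with a median of -0.02 over the members and -0.27 over the parents. In DKO_Ex Fb and DKO_CD Fb 1 of 74 rose and 1 fell in each, where 0.0759% and 0.0378% of all genes were called, with medians of -0.20 and -0.19 over the members and -0.05 and -0.07 over the parents. At an unadjusted p under 0.05, 16 members (21.6%) were lower and 3 higher in DKO_Ex Fb, against 4.22% and 2.79% of all genes. In DKO_CD Fb 18 members (24.3%) were lower and 2 higher, against 3.13% and 5.31% of all genes. No parent was called by limma in any of the 6 comparisons. In TKO_Ex Fb, 32 of 84 ribosomal protein genes were lower at an unadjusted p under 0.05 and 0 were higher, and in DKO_Ex Fb and DKO_CD Fb 6 and 12 were lower.

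**Figure D5:**
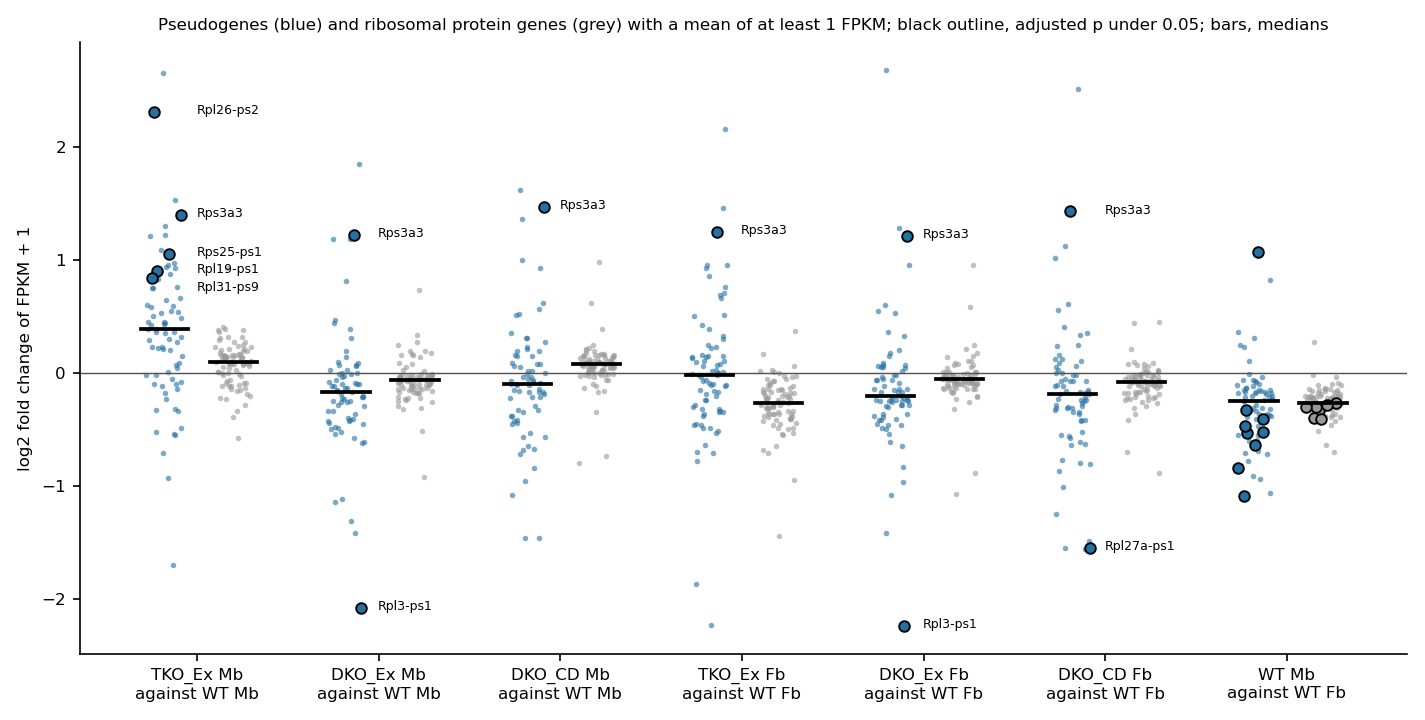
Log2 fold change on the log2(FPKM + 1) scale of the tested members (blue) and ribosomal protein genes (grey) in the 6 comparisons with WT and in WT Mb against WT Fb. Each point is 1 gene, bars are medians and a black outline marks an adjusted p under 0.05, which Rps3a3 has in all 6, at 1.21 to 1.47.

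Rps3a3 was higher in every mutant library than in every WT library of its tissue. It was at 270, 174, 215, 221, 216 and 215 FPKM in WT Mb, at 535, 548, 541 and 678 in TKO_Ex Mb, at 410, 636 and 497 in DKO_Ex Mb and at 707, 733 and 418 in DKO_CD Mb. In the forebrain it was at 217, 241, 225, 255, 257 and 227 FPKM in WT, at 434, 499, 573 and 811 in TKO_Ex, at 465, 781 and 457 in DKO_Ex and at 809, 721 and 448 in DKO_CD. The WT libraries lay close together, whereas the mutant libraries spread, and the replicate numbers highest in Mb (TKO_Ex 4, DKO_Ex 2, DKO_CD 1 and 2) were also the highest in Fb. These values rest on 252.2 to 1122.6 fragments per library.

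Rps3a3 rose in all 6 comparisons, which are not 6 independent results. Those of a tissue share its WT libraries, and the Fb values may repeat the Mb values of the same replicate numbers. The log2 fold change was 1.40 (SE 0.11, adjusted p = 0.00055) in TKO_Ex Mb, 1.22 (0.15, 0.0204) in DKO_Ex Mb and 1.47 (0.18, 0.0281) in DKO_CD Mb. In Fb it was 1.25 (0.15, 0.0202) in TKO_Ex, 1.21 (0.15, 0.02) in DKO_Ex and 1.43 (0.16, 0.0155) in DKO_CD. By the two-sided exact permutation test p was 0.00952 for TKO_Ex and 0.0238 for the DKO groups in both tissues, the smallest these group sizes allow. It was run for 3 members (Rps3a3, Rps25-ps1 and Rpl26-ps2) and their parents, 36 tests in all, and its p-values are unadjusted unless stated. After Benjamini-Hochberg adjustment over the 36 tests, the exact permutation p of Rps3a3 was 0.0451 in each comparison. The 3 members were chosen with earlier results of these data known, so that neither the exact p nor its adjustment allows for the choice. With the class by Xist as a term the 6 values were 1.18 to 1.43 and all were called. The call in TKO_Ex Mb was kept in 10 of 10 fits that left out a library, whereas it was kept in 3 of 9 in DKO_Ex Mb, DKO_CD Mb and DKO_Ex Fb and in 4 of 10 and 4 of 9 in TKO_Ex Fb and DKO_CD Fb, with log2 fold changes that stayed above 0. The call was lost without WT 3, 4, 5 or 6 or DKO_Ex 2 or 3 in DKO_Ex Mb, without WT 3, 4, 5 or 6 or DKO_CD 1 or 2 in DKO_CD Mb, without WT 1, 2, 3, 4 or 6 or TKO_Ex 2 in TKO_Ex Fb, without any 1 of the WT libraries in DKO_Ex Fb, and without WT 1, 2 or 3 or DKO_CD 1 or 2 in DKO_CD Fb.

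The parent Rps3a1 was not called by limma in any comparison. Its mean was 56.0 FPKM in WT Mb, 49.1 in TKO_Ex Mb, 55.8 in DKO_Ex Mb and 55.1 in DKO_CD Mb, and 64.2 FPKM in WT Fb, 52.3 in TKO_Ex Fb, 51.0 in DKO_Ex Fb and 48.3 in DKO_CD Fb. Every DKO Fb library was below every WT Fb library (two-sided exact permutation p = 0.0238 for each DKO group), whereas p was 0.0952 in TKO_Ex Fb and 0.324 to 0.976 in Mb by the same exact test. The share of Rps3a3 in the summed FPKM of the pair was 76.2 to 81.9% in WT Mb and 87.0 to 94.8% in the mutant Mb libraries, and 74.3 to 81.0% in WT Fb and 87.1 to 95.6% in the mutant Fb libraries. Since fragments can be divided between copies, parent and members were also summed over 55 families in estimated fragments per M mapped. Each FPKM was multiplied by the length open to a fragment, for a parent that of its longest coding transcript. The weight of the parent in a sum therefore depends on that choice. The Rps3a1 family was the source of all 4 calls among these sums, at 1.13 (adjusted p = 0.0022) in TKO_Ex Mb, 0.99 (0.0437) in DKO_Ex Mb, 0.97 (0.0342) in TKO_Ex Fb and 1.12 (0.0271) in DKO_CD Fb. The sum was at 1.21 (0.0504) in DKO_CD Mb and 0.93 (0.0696) in DKO_Ex Fb.

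Rps25-ps1 was higher in every mutant Mb library than in every WT Mb library, and its parent lower in every DKO library of either tissue than in every WT library. Rps25-ps1 was at 463, 366, 318, 488, 521 and 419 FPKM in WT Mb, at 932, 985, 713 and 910 in TKO_Ex Mb, at 702, 756 and 770 in DKO_Ex Mb and at 830, 827 and 774 in DKO_CD Mb. It rose in TKO_Ex Mb, by 1.05 (SE 0.14, adjusted p = 0.023), and was at 0.81 (0.15, 0.15) in DKO_Ex Mb and 0.93 (0.15, 0.112) in DKO_CD Mb. The call in TKO_Ex Mb was kept in 5 of 10 fits that left out a library and was lost without WT Mb 2 or 6 or TKO_Ex 1, 2 or 4. In WT Fb it was at 364, 417, 446, 747, 721 and 618 FPKM, overlapping the 681 to 979 FPKM of the TKO_Ex Fb and the 724 to 891 FPKM of the DKO_Ex Fb libraries, and the DKO_CD Fb libraries were at 791 to 843 FPKM. The differences were 0.66, 0.60 and 0.61 in Fb and did not pass the threshold by limma (adjusted p = 0.393 to 0.618). By the two-sided exact permutation test p was 0.00952 in TKO_Ex Mb and 0.0238 in DKO_Ex Mb, DKO_CD Mb and DKO_CD Fb, where the groups did not overlap, 0.0286 in TKO_Ex Fb and 0.0476 in DKO_Ex Fb.

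Rps25 itself was at 531, 378, 400, 305, 319 and 291 FPKM in WT Mb, at 232, 265, 373 and 252 in TKO_Ex Mb, at 198, 166 and 211 in DKO_Ex Mb and at 220, 237 and 197 in DKO_CD Mb. In Fb it was at 356 to 537 FPKM in WT and at 213 to 271 FPKM in the DKO libraries. The differences, from -0.39 (adjusted p = 0.596) in TKO_Ex Mb to -0.95 (0.351) in TKO_Ex Fb, did not pass the threshold by limma. The nearest were -0.89 (0.0661) in DKO_Ex Fb and -0.89 (0.0588) in DKO_CD Fb. By the two-sided exact permutation test p was 0.0238 for both DKO groups in both tissues, 0.019 in TKO_Ex Fb and 0.105 in TKO_Ex Mb. TKO_Ex replicate 3, the library with a WT-like Cdh6 level, had the highest Rps25 of the TKO_Ex libraries in both tissues, at 373 and 380 FPKM.

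Set against each other, the pair separated the WT libraries from each other as well as from the mutants. The share of Rps25-ps1 in the summed FPKM of the pair was 44.3 to 49.2% in WT Mb replicates 1 to 3 and 59.1 to 62.0% in replicates 4 to 6, and 45.0 to 45.4% and 61.9 to 67.7% in the same WT Fb replicates. These are the WT libraries low and high in Xist. In the mutants the share was 65.6 to 82.0% in Mb and 68.7 to 85.7% in Fb, and it lay at 76.7 to 79.1% in the mutants low in Xist (TKO_Ex 4, DKO_Ex 1, DKO_CD 1 and 2). With the Xist class as a term Rps25-ps1 was at 1.0 in TKO_Ex Mb (adjusted p = 0.0375). The summed FPKM of the pair had a mean of 800 in WT Mb and 1165.3 in TKO_Ex Mb. Summed in estimated fragments per M mapped, the Rps25 family was at a log2 fold change of -0.16 there (limma adjusted p = 0.838). The latter sum weights Rps25 by 990.8 bases and Rps25-ps1 by 94.6 bases. Its direction thus depends on the transcript length taken for Rps25, and it is not a count of fragments. In the other 5 comparisons the family sum was at -0.66 to -0.46, and no comparison passed the threshold.

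Rpl3-ps1, on chromosome X, was lower on average in each mutant group, and its parent was not called. It was at 55.9, 46.1, 59.7, 28.6, 35.3 and 34.3 FPKM in WT Mb, at 6.91, 8.96, 11.1 and 31.0 in TKO_Ex Mb, at 9.76, 9.29 and 8.46 in DKO_Ex Mb and at 8.96, 12.4 and 27.3 in DKO_CD Mb. In Fb it was at 55.1, 55.7, 62.8, 28.7, 36.2 and 35.4 FPKM in WT, at 7.23, 9.29, 6.51 and 34.4 in TKO_Ex, at 7.4, 8.31 and 9.9 in DKO_Ex and at 11.2, 10.9 and 23.5 in DKO_CD. TKO_Ex 4 and DKO_CD 3 stood apart from their groups in both tissues, at 23.5 to 34.4 FPKM, and the other 8 mutant replicate numbers were at 6.51 to 12.4 FPKM.

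Rpl3-ps1 fell in DKO_Ex, by 2.08 in Mb (SE 0.22, adjusted p = 0.0103) and by 2.24 in Fb (0.24, 0.00712). The other differences were -1.70 (0.35, 0.143) in TKO_Ex Mb, -1.46 (0.33, 0.394) in DKO_CD Mb, -1.87 (0.40, 0.198) in TKO_Ex Fb and -1.55 (0.30, 0.183) in DKO_CD Fb. The call was kept in 9 of 9 fits that left out a library in Fb and in 8 of 9 in Mb, where it was lost without DKO_Ex 3 (adjusted p = 0.0751). Without TKO_Ex 4 it also passed in TKO_Ex, at -2.12 in Mb and -2.38 in Fb. By the record grouping the call moved with the libraries from DKO_Ex to DKO_CD. Rpl3 had group means of 1140.7 to 1263.6 FPKM.

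The WT libraries of Rpl3-ps1 also divided as Xist did. It was at 46.1 to 59.7 FPKM in WT Mb and 55.1 to 62.8 in WT Fb among the WT libraries low in Xist, and at 28.6 to 35.3 and 28.7 to 36.2 FPKM among those high in Xist. Within the libraries low in Xist, TKO_Ex 4 was at 31.0 and 34.4 FPKM, DKO_Ex 1 at 9.76 and 7.4 and DKO_CD 1 and 2 at 8.96 to 12.4. Within those high in Xist the TKO_Ex libraries were at 6.51 to 11.1, DKO_Ex at 8.31 to 9.9 and DKO_CD 3 at 27.3 and 23.5 FPKM. In both classes every mutant library was below every WT library of its tissue. With the class as a term Rpl3-ps1 was called in TKO_Ex Mb at -1.44 (adjusted p = 0.0375), TKO_Ex Fb at -1.57 (0.038), DKO_Ex Mb at -1.99 (0.00165) and DKO_Ex Fb at -2.17 (0.00544), and not in the DKO_CD comparisons. This term was added after the values had been seen.

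Rpl31-ps9 and Rpl19-ps1, copies of large-subunit genes, rose in TKO_Ex Mb, the group whose libraries were highest over the members. Rpl31-ps9 was at 168, 144, 120, 113, 145 and 121 FPKM in WT Mb and at 256, 214, 248 and 242 in TKO_Ex Mb, a log2 fold change of 0.84 (SE 0.11, adjusted p = 0.023). Rpl19-ps1 was at 48.6, 34.6, 30.3, 33.0, 36.8 and 32.0 FPKM in WT Mb and at 67.5, 59.3, 71.2 and 70.8 in TKO_Ex Mb, a log2 fold change of 0.90 (0.13, 0.0233). The groups did not overlap. The parents were at 0.17 for Rpl31 (0.756) and 0.10 for Rpl19 (0.791). The calls were kept in 2 of 10 and 1 of 10 fits that left out a library. In the other 5 comparisons neither member passed.

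Rpl26-ps2 stood at 0 FPKM in each of the 6 WT Mb libraries, and the 4 TKO_Ex Mb libraries were at 2.89, 5.12, 6.29 and 2.49 FPKM. No p is given, since the filter kept it only through the TKO_Ex libraries. No fold change is given against a group at 0, and the fitted value depends on the pseudocount. The TKO_Ex Mb values correspond to 0.9 to 1.9 fragments per library. It was at 1.75, 1.96 and 1.76 FPKM in DKO_Ex Mb, at 0, 4.81 and 0 in DKO_CD Mb and at 0, 0, 2.44, 0, 11.6 and 0 in WT Fb, so that the highest value of all libraries was in a WT library. Rpl26 had a mean of 1563.3 FPKM in WT Mb and 1806.7 in TKO_Ex Mb.

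Rpl27a-ps1 fell in DKO_CD Fb, where it was at 6.97, 5.96 and 4.22 FPKM against 18.4, 21.2, 20.8, 14.5, 22.1 and 14.5 FPKM in WT Fb. The log2 fold change was -1.55 (SE 0.18, adjusted p = 0.0188), and Rpl27a was at -0.22 (0.681). The values rest on 2.0 to 3.1 fragments in DKO_CD Fb and 6.7 to 10 in WT Fb, and the call was kept in 2 of 9 fits that left out a library. Under the record grouping this call moved with the libraries from DKO_CD Fb to DKO_Ex Fb. In WT Mb it was at 4.11 to 12.9 FPKM.

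Of 68 members tested in all 6 comparisons, 2 had a log2 fold change above 0 in each, Rps3a3 (1.21 to 1.47) and Rps25-ps1 (0.60 to 1.05), and 7 had one below 0 in each. The 7 included Rpl3-ps1 (-2.24 to -1.46), Rps19-ps1 (-0.71 to -0.30), Rps19-ps2 (-0.63 to -0.20), Rps19-ps6 (-0.38 to -0.02), Rpl10-ps6 and Rpl27-ps3 (-2.23 to -0.06). Of these 7, only Rpl3-ps1 was called in any of the 6 comparisons. The 6 signs of a member are not independent, for the reasons given for Rps3a3. The share of all genes with one sign in all 6 comparisons is not given, so these counts are not read as particular to the members.

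Between the WT tissues most members were listed lower in the midbrain. In WT Mb against WT Fb, 1 of 72 members was higher and 8 lower, where 8.26% of all genes were called (4.66% higher and 3.6% lower). The log2 fold change was below 0 for 65 of 72 members, with a median of -0.25, beside -0.23 for the parents and -0.27 for the ribosomal protein genes. At an unadjusted p under 0.05, 27 members (37.5%) were lower and 2 higher, against 10.5% and 10.4% of all genes. Rpl27a-ps1 was lower in Mb by 1.09 (SE 0.21, adjusted p = 0.00515), and the other 7 lower members were at -0.84 (Rpl36-ps2), -0.64 (Rpl14-ps1), -0.53 (Rpl18-ps1), -0.52 (Rpl19-ps1), -0.47 (Rpl31-ps9), -0.41 (Rpl18-ps2) and -0.33 (Rpl13-ps3). The ribosomal protein genes gave 7 lower and 0 higher calls, from -0.41 for Rpl37 to -0.27 for Rpl15. The number of member calls changed with single libraries, at 18 without WT Mb 1 and 3 without WT Mb 4. The share of all genes called in those fits is not given, so these counts are not read as particular to the members.

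The difference between the Mb and the Fb effect was tested for each mutant group as an interaction, with same-numbered Mb and Fb libraries left unpaired. No member was called. With the replicate number as a block, Rpl30-ps8 was called for DKO_Ex (-1.71, adjusted p = 0.0311). For TKO_Ex, where 0.0149% of all genes were called, 18 of 76 members had a larger effect in Mb and 2 a smaller one at an unadjusted p under 0.05, against 3.16% and 3.35% of all genes, with a median of 0.38 over the members and 0.35 over the ribosomal protein genes. For DKO_Ex (0% of all genes called) the unadjusted counts were 2 and 1 of 73, against 2.68% and 1.2% of all genes, and for DKO_CD (0.00746%) they were 6 and 0 of 72, against 2.25% and 2.58%. The calls of Rpl31-ps9 and Rpl19-ps1 in TKO_Ex Mb alone were therefore not shown to differ from TKO_Ex Fb.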

How the data were processed

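Per the labels, directional NEBNext Ultra libraries were sequenced from total RNA. The authors aligned the reads to GRCm38/mm10 with TopHat2 and deposited FPKM per Ensembl gene from Cufflinks, 1 table for each of the 32 libraries; versions, annotation and the handling of reads with several matches are not given in the sources used here. Read counts that the authors tested with HTSeq and DESeq2 were not used here, so that limma replaced their count test.

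Repeated identifiers (65) were summed. Mutant groups were tested against the WT libraries of their tissue by limma 3.58.1 (R 4.3.3), on log2(FPKM + 1) and with its trend option, for genes averaging 1 FPKM or more in the libraries of the fit, with Benjamini-Hochberg adjustment over all genes tested and a threshold of 0.05. WT tissues and the interactions were fitted likewise, without pairing same-numbered Mb and Fb libraries. Pairing entered only through the replicate block, an alternative. The fit was checked on simulated data. The depth of each library was estimated from the FPKM steps of low genes, assuming fragments of 290 ± 82 bases, and was used for fragments per member; no interval is given, since counts were not used. Members were aligned to the parent transcripts with Biopython 1.88, and 101-base windows were matched exactly.

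Members past the threshold, Rps3a3, Rps25-ps1, Rpl26-ps2, the 8 highest in WT, the 5 most variable in WT Mb, those at 0 in all libraries of a genotype and at 1 FPKM or more in all of another, and their parents are named, except that some members are not reported here. Members called between the tissues, members with one sign in all 6 comparisons and members named for their sequence were picked after their values had been seen. Members and lists were chosen with earlier results of these data known. The alternatives were no filter, pseudocounts of 0.1 and 5, median-of-ratios scaling, no trend, 4 genotypes in 1 fit, a replicate block, grouping by record and leaving out each library. The Xist class (10 FPKM or more, or less) as a term, and leaving out libraries for the tissues and interactions, were added after the values had been seen, as were ratios per whole length.
Printed stretches start 10 bases before a mismatch, where possible, and are those with the most mismatches.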

Additional observations from a re-analysis of the deposited data

Results flagged for a closer look

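In 6 of 75 groups of 4 to 10 libraries 1 library stood farther from the others than expected of a single sample, where chance gives about 1 in 20. Rps3a3 was at 678 FPKM in TKO_Ex Mb replicate 4, with the others at 535 to 548. Rpl3-ps1 was at 34.4 FPKM in TKO_Ex Fb replicate 4, with the others at 6.51 to 9.29. Rpl35a-ps2 was at 1647.1 FPKM in WT Mb replicate 1, with the others at 829 to 1104.9. Rpl19-ps1 was at 48.6 FPKM in the same library, with the others at 30.3 to 36.8. Of the members with few fragments, Rpl26-ps2 was at 11.6 FPKM in WT Fb replicate 5 (others 0 to 2.44) and Rps19-ps10 was at 9.09 FPKM in WT Fb replicate 2 (others 0 to 2.96).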

How the results depend on the processing

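No alternative reversed a called difference. For the 7 members called against WT, 620 of 717 values under an alternative kept their side of the threshold, 88 lost a call and 9 gained one. The 717 include comparisons in which the member was not called as reported and so had no call to lose. The 7 members include Rpl26-ps2, whose call in TKO_Ex Mb is no support. It is also among the TKO_Ex Mb calls counted below. Among the called results, losses ran from 1 of 18 alternatives for Rps3a3 in TKO_Ex Mb to 13 of 18 for Rpl19-ps1 in TKO_Ex Mb. For Rpl31-ps9 in TKO_Ex Mb they were 11 of 18, and for Rps3a3 in DKO_Ex Fb 10 of 18. Without the filter the calls were 2 in TKO_Ex Mb (5 as reported), 0 in DKO_CD Mb (1), 1 in DKO_Ex Fb (2) and 5 between the tissues (9). Without the trend they were 2, 0 and 1 in the same 3 mutant comparisons. With the 4 genotypes in 1 fit they were 2 in DKO_CD Mb and 0 in DKO_Ex Fb. By the record grouping they were 1 in DKO_Ex Mb (2) and 2 in DKO_CD Mb. With the Xist class as a term, added after the values had been seen, TKO_Ex Mb had 6 (5) and TKO_Ex Fb 2 (1). The cause of these moves was not tested. Shares of all genes called are given for the fits as reported only. Counts of calls under the alternatives, leaving out libraries included, are therefore not read as particular to the members. Of the parents, 0 were called as reported, and 1 was called under each of 4 settings, which are Rpl18 in TKO_Ex Fb with 4 genotypes in 1 fit (-0.71, adjusted p = 0.0466), and Rps25 in DKO_CD Fb with median-of-ratios scaling (-0.94, 0.0249), with the Xist class as a term (-0.93, 0.0223) and without WT Fb replicate 4 (-0.95, 0.0247).

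Leaving out 1 library gave 2 to 8 calls in TKO_Ex Mb (Rpl26-ps2 among them in each fit), 0 to 3 in DKO_Ex Mb, 0 to 1 in DKO_CD Mb, 0 to 2 in TKO_Ex Fb, 1 to 2 in DKO_Ex Fb, 0 to 3 in DKO_CD Fb and 3 to 18 between the tissues, and 0 in the interactions.

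Same-numbered mutant and WT libraries did not deviate together (correlations of -0.09 to 0.05), so the numbers do not pair them. With the replicate block the calls were 0 in TKO_Ex Mb, DKO_Ex Mb, DKO_CD Mb, TKO_Ex Fb and DKO_CD Fb, 1 in DKO_Ex Fb, 8 between the tissues and 1 in the interaction of DKO_Ex (Rpl30-ps8, 0 as reported). Same-numbered Mb and Fb libraries correlated at 0.01 to 0.14, and 13 of 16 Mb libraries correlated best with their own number. At 2.07 to 3.44 M fragments, members under 3 fragments per library varied by as much as counting alone gives.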
